A study of Mus musculus with 18 samples.

Results

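Fibroblasts of mouse hearts that had received a hairpin against Jun (shJun) or a non-targeting hairpin (shNT) were compared here, animal by animal. Fibroblast wells were selected on their own counts: a well had to hold at least 500 detected genes, and the summed unique molecular identifiers (UMIs, each standing for 1 captured RNA molecule) of Col1a1, Col3a1, Col1a2, Dcn, Pdgfra and Lum had to exceed the sums of 6 endothelial and of 6 macrophage markers and to reach 0.3% of the UMIs of non-mitochondrial genes. Of 7382 wells with 500 or more genes from these hearts, 1339 were fibroblast wells, against 1643 endothelial wells, 335 macrophage wells and 4065 wells that met no class. The whole series held 20516 wells with 500 or more genes.

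The study followed heart cells of Myh6/Esr1-Tomato mice, in which a Cre expressed from the cardiomyocyte promoter Myh6 turns on a red reporter after tamoxifen, through the weeks after birth. All 4 animals compared here were of this strain and aged P28. Per the study's methods, all had received concentrated pLKO.1 lentivirus in the left ventricle at P1, so the shNT animals carried virus and a hairpin too. The virus was chosen for its reach into dividing newborn cardiomyocytes and its knockdown was checked in such cells in culture, and no label says which cells were infected. Hearts were digested by Langendorff perfusion, cardiomyocytes and other cells were separated by centrifugation, and both fractions were dispensed into ICELL8 nanowell chips.

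Cardiac fibroblasts lay down and turn over the collagen scaffold between cardiomyocytes, and after injury they can take on a contractile, myofibroblast state. Jun is a subunit of AP-1, a family of paired leucine zipper factors made of Jun, Fos, Atf and Maf proteins that bind short palindromic sites. Many AP-1 genes are immediate early genes that any stress can switch on within minutes, including the digestion of a tissue, and AP-1 sites occur near genes of matrix remodelling and inflammation.

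The 250 bases before the start of Jun are shown because Jun is the targeted gene and is itself a known AP-1 target. Capitals mark a match to TGANNTCA, the longer form of the AP-1 site that CREB factors also bind, which begins 45 bases before the start. Coordinates are GRCm38.p6 (the mm10 assembly), sequence from RefSeq, chr4:95052223-95052472, minus strand.
Jun promoter: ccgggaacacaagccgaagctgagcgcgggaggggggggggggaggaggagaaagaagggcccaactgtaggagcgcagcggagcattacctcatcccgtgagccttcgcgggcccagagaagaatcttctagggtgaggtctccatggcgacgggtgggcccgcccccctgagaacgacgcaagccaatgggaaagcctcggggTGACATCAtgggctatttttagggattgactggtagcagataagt

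The shJun animals 1 and 2 gave 443 and 284 fibroblast wells with 13857719 and 14688326 UMIs, and the shNT animals 1 and 2 gave 263 and 349 wells with 9198016 and 17021302 UMIs. Median UMIs per well were 19588 and 31154 in shJun and 22476 and 29568 in shNT, with 1655, 2390, 1789 and 2103 genes in the same order. The groups therefore overlapped in depth. Mitochondrial genes took 26.9 and 24.7% of all UMIs in the shJun pools and 49.6 and 30.3% in the shNT pools, and were left out of all totals. Wells shared barcodes across chips: the 1339 wells carried 1208 distinct barcodes, 124 of which occurred on at least 2 chips.

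The 6 fibroblast markers chose the wells, so their values are a description fixed by the rule and no check of the label. At least 3 of the 6 had a UMI in 97.1 and 91.2% of shJun wells and in 94.7 and 93.4% of shNT wells. Dcn, a collagen-binding proteoglycan, was detected in 98.5 to 99.8% of wells per animal, and Pdgfra, the receptor that marks resident fibroblasts, in 33.1 to 42.4%. Summed marker level was 13939 and 14060 UMIs scaled to a common total (CPM) in shJun and 13963 and 16992 in shNT. The well nearest above the limit of 0.3% stood at 0.301% and the nearest below at 0.2997%, with 62 wells within 0.05 percentage points above and 86 within 0.05 below, while the median well stood at 0.830%. Tcf21, a factor of the fibroblast lineage that the rule did not use and that was chosen after its values were seen, stood at 49.7 and 44.9 CPM in shJun and at 37.3 and 77.6 in shNT.

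Many wells went against the label, and fibroblast well here means no more than a well that met the rule. More than 1% of UMIs came from 10 cardiomyocyte genes in 149 of 443 and 117 of 284 shJun wells and in 178 of 263 and 155 of 349 shNT wells. In shNT animal 1 the median well held more cardiomyocyte than fibroblast marker UMIs (1.88 against 0.768%), whereas in the other 3 animals it held less. Wells from the 4 chips loaded with the cardiomyocyte fraction (46 and 96 in shJun, 23 and 130 in shNT) took 11.9 and 12.5% of their UMIs in shJun and 14.1 and 11.3% in shNT from these genes, and every one of them was above 1%. In the wells of the 2 non-cardiomyocyte chips (397 and 188 in shJun, 240 and 219 in shNT) the same genes took 0.256 and 0.469% in shJun and 1.58 and 0.324% in shNT. These chips were not free of such wells either: 103 and 21 shJun wells and 155 and 25 shNT wells on them were above 1%. Whether such a well held a cardiomyocyte beside a fibroblast, or free RNA, was not tested, and results are given with all wells and with the wells of the non-cardiomyocyte chips alone.

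**Figure D1:**
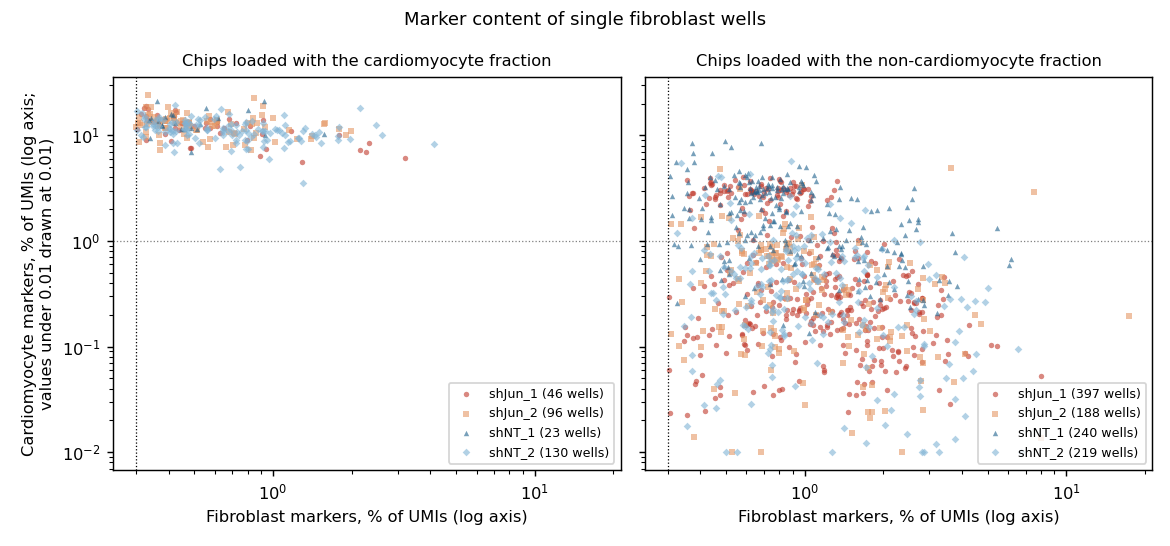
Each point is 1 fibroblast well, with the share of its non-mitochondrial UMIs from 6 fibroblast markers (horizontal, percent, log axis) and from 10 cardiomyocyte markers (vertical, percent, log axis), in panels for the cardiomyocyte and non-cardiomyocyte chips. Dotted lines mark the 0.3% limit of the rule and 1% of cardiomyocyte markers; all wells of the cardiomyocyte chips lie above the latter.

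RNA of other cells was present in every pool. Genes of erythrocytes took 12.7 and 3.31% of UMIs in shJun and 4.92 and 9.57% in shNT. Mesothelial markers, which mark the outer lining of the heart, summed to 246 and 174 CPM in shJun and to 955 and 237 CPM in shNT, so shNT animal 1 stood apart. T cell markers summed to 793 CPM in shJun animal 2 and to 24.2 to 110 CPM in the other 3 animals. Mural markers, of pericytes and smooth muscle, summed to 2031 and 672 CPM in shJun and to 842 and 1463 CPM in shNT. None of the mesothelial, mural, erythroid or cardiomyocyte markers was at 0 in any animal, whereas Trac, Cd79a, Sox10 and Csf3r were at 0 in at least 1. Xist, transcribed from the inactive X chromosome, stood at 289.5 CPM in shJun animal 1 and below 3 CPM in the others, and the Y-linked Ddx3y at 1.23 CPM there and at 133 to 159 CPM in the others. By these genes 1 of 2 shJun animals and 0 of 2 shNT animals was female. No fit here accounts for sex, and its part in the results was not tested. Alb, a liver gene, stood at 1204 CPM in shNT animal 2, with 24.4 CPM in shJun animal 2 and 0 in the other animals.

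To ask which genes the hairpin changed in fibroblasts, UMIs were summed per animal and 2 shJun sums were set against 2 shNT sums with edgeR's quasi-likelihood test. Of 15314 genes tested, 0 passed an adjusted p of 0.05 (0.00% called), and the smallest adjusted p was 0.902. At an unadjusted p under 0.05 stood 797 genes, which is 5.20%. On the non-cardiomyocyte chips alone 0 of 14303 genes passed (0.00%), and 697 or 4.87% had an unadjusted p under 0.05. In 16.4% of all genes both shJun values lay above both shNT values and in 15.7% they lay below, and counts of such genes in the groups described here are to be read against those shares. The spread between animals was wide, with a common dispersion of 0.483 and 2 residual degrees of freedom. In a bulk sum of this kind, fewer cells carrying a transcript and less transcript per cell cannot be told apart.

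Other tests of the same sums called more genes. DESeq2 called 217 of 13966 genes (1.55%), 119 higher and 98 lower, and edgeR without a filter on low counts called 239 of 27103 (0.882%), with 103 genes called by both. For the genes DESeq2 called, the median share of a gene's UMIs that came from its deepest well was 57.2%, against 17.3% over all genes tested, and 124 of them took more than 50% from a single well. Sums per animal and chip called 8 of 12607 genes (0.0635%), all lower in shJun and all expressed by liver, led by Apoa2, Alb and Apoa1. That fit counts the chips of an animal as replicates of its hairpin, and Alb was high in shNT animal 2 alone (1204 CPM, against 0 to 24.4 in the other 3 animals).

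The targeted gene, Jun, is encoded on the minus strand of chromosome 4 (95049034 to 95052222, ENSMUSG00000052684). Its level was 123 and 199.6 CPM in shJun fibroblasts and 115 and 133 CPM in shNT fibroblasts, where CPM from here on are per non-mitochondrial UMI after TMM scaling. The groups overlapped, and shJun animal 2 was the highest. The log2 change was 0.38 (SE 0.41, 95% interval −0.61 to 1.38, edgeR adjusted p = 0.974), and an exact two-sided permutation test of the 4 animals gave p = 0.667, where 2 against 2 cannot go below 0.333. These animals do not separate a change of 0 from the others within that interval, and the interval is no limit of detection.

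The Jun counts rested on few wells. They came to 1700 and 2997 UMIs in 123 and 97 shJun wells and to 1101 and 2094 UMIs in 71 and 135 shNT wells, and a single well gave 39.5% of them in shJun animal 2 and 33.3% in shNT animal 1. After thinning every well to 2000 UMIs, Jun was seen in 10.8% of shJun animal 1 wells (exact binomial 95% interval 7.80 to 14.5%) and in 11.6% of shJun animal 2 wells (7.69 to 16.5%), against 7.61% (4.32 to 12.2%) and 9.60% (6.53 to 13.5%) in shNT. These intervals cover counting error only and overlap. Without thinning the shares were 27.8 and 34.2% in shJun and 27.0 and 38.7% in shNT. On the non-cardiomyocyte chips alone the Jun levels were 128 and 276 CPM in shJun against 120 and 180 CPM in shNT, a log2 change of 0.43 (95% interval −0.87 to 1.73). Without shJun animal 2 the log2 change of Jun in shJun and shNT fibroblasts of all chips was −0.00763. It was also below 0 where the fibroblast markers had to reach 1% (−0.14) and where cardiomyocyte markers had to stay under 1% (−0.00747), so its sign was not stable.

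The same hearts' other cells were read for Jun by the same rule. The log2 change of Jun was 0.51 in endothelial wells and −0.73 in macrophage wells, and that in fibroblasts minus the mean of both was 0.30. In the test of this difference, the interaction of class and hairpin in edgeR, 0 of 17350 genes passed (0.00%), with 626 or 3.61% at an unadjusted p under 0.05.

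Jun's partners were measured as well. Of 12 AP-1 factors, 9 could be tested (Fosl1, Batf and Batf3 had too few UMIs), and their median log2 change was 0.39 against 0.01 over all genes tested. Over 24 settings that median lay between −1.70 and 1.06 and was above 0 in 18. Jund, the Jun family member that is least dependent on stimulation, stood at 74.9 and 47.5 CPM in shJun and at 113 and 96.2 in shNT, both shJun values lying below both shNT values (log2 change −0.77, SE 0.47, 95% interval −1.89 to 0.35). Fosl2 was the other factor without overlap, at 75.7 and 83.7 CPM in shJun against 43.6 and 58.0 in shNT (log2 change 0.65, SE 0.47). No AP-1 factor passed the test.

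Junb, which can oppose Jun at some promoters, stood at 26.7 and 27.0 CPM in shJun and at 45.1 and 13.5 in shNT, so the shNT values enclosed those of shJun. Fos, the classical partner of Jun, was scattered, at 167 and 4.46 CPM in shJun and at 43.2 and 6.83 in shNT, and a single well gave 90.5% of the Fos UMIs of shJun animal 1. Fosb, Atf3, Maff and Mafk lay between 0.266 and 18.4 CPM in the 4 animals, and each overlapped between the groups.

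**Figure D2:**
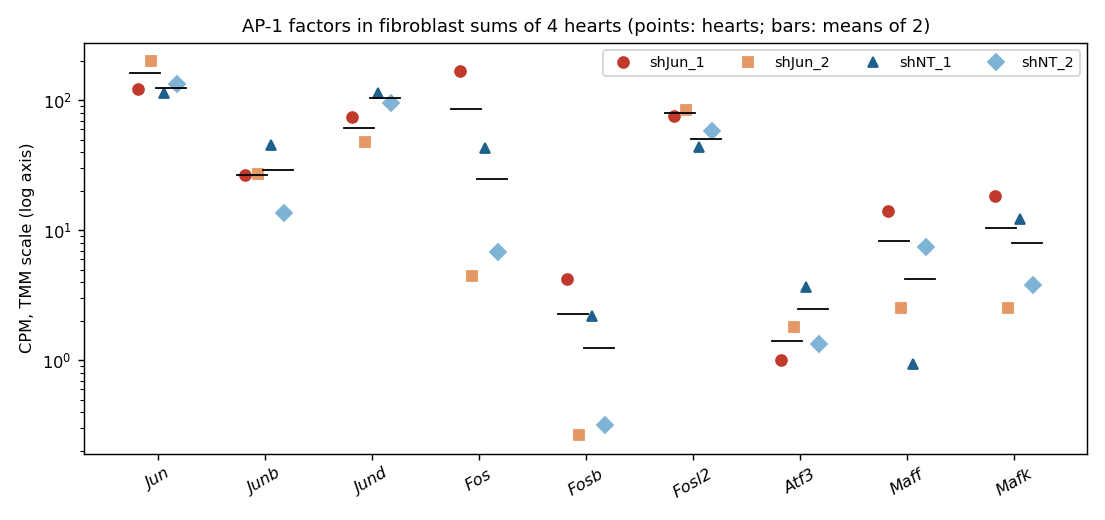
Levels of 9 AP-1 factors in the fibroblast sums (CPM, TMM scale, log axis); each point is 1 animal, and bars are means of 2 animals of a hairpin. Jun overlaps between the groups (123 and 199.6 against 115 and 133 CPM), and only Jund and Fosl2 do not overlap.

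Genes that respond with AP-1 or to it lay on both sides of 0. Of 18 immediate early genes outside AP-1, 17 were tested, 0 passed, and 5 lay above shNT without overlap and 0 below (median log2 change 0.55, above 0 in 21 of 24 settings). Nr4a3, an orphan nuclear receptor, led them at 35.1 and 22.5 CPM in shJun against 0.313 and 4.11 in shNT, with single wells giving 58.4 and 63.9% of its shJun UMIs. Egr1 stood at 333 and 249.7 CPM in shJun and at 289 and 33.8 in shNT. Of 17 textbook AP-1 targets, 15 were tested and 0 passed, with 2 above and 4 below without overlap (median 0.07, above 0 in 9 of 24 settings). Plaur, the urokinase receptor, stood at 12.4 and 69.6 CPM in shJun against 6.78 and 4.81 in shNT, whereas the intermediate filament gene Vim stood at 1189 and 965 CPM against 1292 and 1228.

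The letters of promoters were set beside these changes. The short AP-1 site TGANTCA, which reads the same on both strands, occurred in 2217 of 32851 RefSeq promoters of 250 bases (6.75%), and TGANNTCA, likewise palindromic, in 3919 (11.9%). Of the tested genes, 10255 could be matched to a promoter. The 570 that held TGANTCA had a median log2 change of −0.03 and the 9685 that lacked it −0.01. Of the genes with it, 12.6% lay higher in shJun without overlap and 17.0% lower, against 16.5 and 16.1% of those without it.

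Among the lists of fibroblast programmes, complement genes had the lowest median in shJun fibroblasts. The complement cascade tags cells and debris for removal, and fibroblasts secrete several of its parts. All 9 genes of the list had a log2 change below 0, where 50.5% of all genes tested lay above 0 (50.2% on the non-cardiomyocyte chips). In 7 of them both shJun values lay below both shNT values, which held for 15.7% of all genes. The median log2 change was −1.34 against 0.01 over all genes tested. None of the 9 passed the adjusted threshold, and C3, C4b, Cfb and C7 had an unadjusted p under 0.05.

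C3, the central component on which all arms of the cascade converge, stood at 265 and 389 CPM in shJun and at 1175 and 478 CPM in shNT (log2 change −1.34, SE 0.51, 95% interval −2.56 to −0.12, edgeR adjusted p = 0.902). The shNT animals were higher, and shNT animal 1 stood far above the other 3. C4b, a classical pathway component cleaved by the C1 complex, stood at 15.8 and 26.2 CPM in shJun and at 132 and 158 CPM in shNT (log2 change −2.79, SE 0.50, upper 95% bound −1.58, edgeR adjusted p = 0.902). Here the 2 shNT animals lay close together and the gap to shJun exceeded the spread within each pair, and DESeq2 called the gene (adjusted p = 0.00155).

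The C4b counts were unevenly spread over wells. They came to 219 and 393 UMIs in 32 and 39 shJun wells and to 1263 and 2501 UMIs in 43 and 89 shNT wells. A single well gave 50.9% of those of shJun animal 2 and 63.4% of those of shNT animal 2. With every well thinned to 2000 UMIs, C4b was seen in 2.22% (exact binomial 95% interval 0.961 to 4.32%) and 3.11% (1.26 to 6.30%) of shJun wells and in 9.14% (5.51 to 14.1%) and 7.28% (4.62 to 10.8%) of shNT wells, and without thinning in 7.22 and 13.7% against 16.3 and 25.5%. The thinned shares kept both shNT animals above both shJun animals, but the interval of shJun animal 2 overlapped those of both shNT animals. C4b (ENSMUSG00000073418, chromosome 17, 34728380 to 34743882, minus strand) has a near-identical neighbour, C4a, so reads between them can be split and the values of each are uncertain. C4a, added after its values were seen, stood at 1.08 and 5.39 CPM in shJun and at 26.2 and 37.8 in shNT.

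A regulator differed by less. Serping1, the inhibitor of the C1 proteases, stood at 1449 and 994 CPM in shJun and at 1866 and 2547 in shNT (log2 change −0.85, SE 0.37, 95% interval −1.74 to 0.04). It was present in more wells than any other gene of the list, with thinned shares of 48.5 and 41.3% in shJun and 48.2 and 45.7% in shNT, so the shares of wells overlapped in their intervals while the summed levels did not overlap.

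The remaining members were chosen for naming after their values were seen, except C1s1 and C1ra. The C1 proteases C1s1 and C1ra stood at 79.0 and 81.6 CPM and at 67.0 and 33.0 CPM in shJun, and at 118 and 146 CPM and at 90.9 and 154 CPM in shNT. C7, a part of the membrane attack complex, stood at 16.6 and 29.2 CPM against 43.3 and 121, from between 5 and 21 wells per animal. Cfb, of the alternative pathway, had 8 and 4 UMIs in shJun and 87 and 74 in shNT. C2 (8.89 and 11.4 against 54.9 and 7.59 CPM) and Cfd (32.0 and 1.20 against 1.15 and 33.0 CPM) overlapped between the groups.

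**Figure D3:**
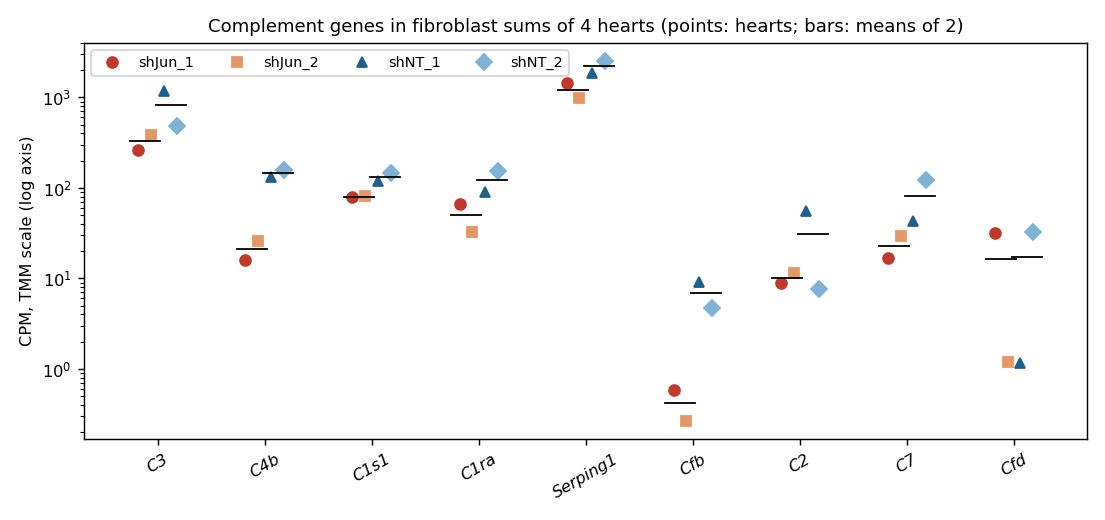
Levels of 9 complement genes in the fibroblast sums (CPM, TMM scale, log axis); each point is 1 animal, and bars are means of 2 animals of a hairpin. In 7 of 9 genes both shJun animals lie below both shNT animals, with C4b at 15.8 and 26.2 against 132 and 158 CPM; C2 and Cfd overlap.

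The median of the complement list kept its sign in the settings tried. The list was singled out for its low median in these same animals, and the settings re-used their wells. A kept sign was therefore largely fixed by that choice and is no separate check. On the non-cardiomyocyte chips alone the median log2 change was −1.58, again with 7 of 9 genes below without overlap (15.4% of all genes there), and C4b stood at 12.5 and 31.5 CPM in shJun against 129 and 192 in shNT. Over 24 settings the median lay between −1.87 and −0.59. It was lowest where only wells with under 1% of cardiomyocyte markers were kept. It was closest to 0 when non-cardiomyocyte chip wells were thinned to 5000 UMIs (−0.59), and it was −0.96 with all wells thinned and −0.92 without shNT animal 2. In endothelial wells of the same hearts the median of the list was −0.27 and in macrophage wells −0.16, and the log2 changes of C3 and C4b in endothelial wells were −1.67 and −1.68. The log2 change of C4b in fibroblasts minus the mean of the other classes was −1.74, and no complement gene differed between classes past the adjusted threshold. Summed mesothelial markers (955 CPM in shNT animal 1 and 174 to 246 CPM in the others) and mitochondrial share (49.6% in shNT animal 1) were highest in the animal with the highest C3, and their part in the result was not tested.

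Fibroblasts of uninjected hearts of the same age were read by the same rule from 5 P28 chips with 20 or more such wells (42 to 660 wells, median UMIs of 4461 to 7894 per well). On CPM without TMM scaling, C4b lay between 0 and 13.3 with a median of 6.89, against 15.8 and 26.8 in shJun and 137 and 147 in shNT. C3 lay between 27.4 and 197 CPM, against 264 and 397 in shJun and 1225 and 444 in shNT. The uninjected values of both genes thus lay below those of all 4 injected animals. The ranges of the other 7 complement genes overlapped with those of the injected animals. Serping1 lay between 724 and 3213 CPM in the uninjected chips and between 1016 and 2364 in the injected animals. C1s1 lay between 3.43 and 90.5 CPM against 78.9 to 136, C1ra between 28.5 and 74.0 against 33.7 to 143, C2 between 0 and 23.2 against 7.05 to 57.2, and C7 between 0 and 50.5 against 16.6 to 112. Cfb (0 to 1.96 against 0.272 to 9.46 CPM) and Cfd (0 to 4.69 against 1.20 to 31.9 CPM) overlapped as well. Jun lay between 236 and 487 CPM in the uninjected chips, above the 120 to 204 CPM of the injected animals. The uninjected chips also differed among themselves. Xist stood at 0 CPM on P28 chips 1 and 2 and at 185 to 235 CPM on P28 chips 4 to 6. Mitochondrial genes took 18.1 to 63.7% of UMIs, and cardiomyocyte markers 0.120 to 7.60%. The uninjected hearts were run on other chips at lower depth per well, so virus, chip and these traits cannot be told apart. No test was made.

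Collagen genes outside the rule did not move together. All 14 were tested and 0 passed, with a median log2 change of 0.09, 2 above and 1 below without overlap. Col4a1, a basement membrane collagen, stood at 1596 and 1421 CPM in shJun and at 1302 and 1566 in shNT (log2 change 0.07, 95% interval −0.71 to 0.85). That interval excludes a change of 2-fold in either direction. Of the genes that process collagen, 11 of 14 had a change below 0 (median −0.20), where 50.5% of all genes tested lay above 0. Without overlap, 1 lay above and 3 below, against 16.4 and 15.7% of all genes. Serpinh1, the collagen chaperone, stood at 461 and 310 CPM against 597 and 227 CPM.

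Small leucine-rich proteoglycans, which bind collagen fibrils and set their spacing, had a median of −0.69 over 8 genes, with 2 above and 4 below without overlap. Aspn, which binds collagen and TGF-beta, stood at 275 and 203 CPM in shJun and at 599 and 351 in shNT (log2 change −0.99, SE 0.41, 95% interval −1.98 to −0.01, edgeR adjusted p = 0.902). Bgn stood at 345 and 288 CPM against 403 and 431 CPM. Prelp went the other way without overlap, at 384 and 351 CPM against 301 and 215 CPM, so the list held members on both sides. Omd, named after its values were seen, stood at 0.578 and 3.33 CPM against 3.96 and 41.9 CPM.

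Elastic fibre genes lay below 0 in 11 of 12 cases (median −0.31), where 50.5% of all genes tested lay above 0. Without overlap, 1 lay above and 3 below, against 16.4 and 15.7% of all genes. Mfap5, a microfibril protein, stood at 1727 and 1783 CPM in shJun and at 2060 and 2949 in shNT (log2 change −0.51, 95% interval −1.34 to 0.31), and Fbln1 at 458 and 437 CPM against 559 and 546 CPM. On the non-cardiomyocyte chips the median was −0.32, with 1 above and 0 below without overlap. Of 20 matricellular and adhesive glycoproteins, 0 lay above and 4 below without overlap (median −0.33). Sparc, a collagen-binding glycoprotein, stood at 3041 and 2352 CPM in shJun against 3082 and 2845 in shNT. Thbs2 (53.1 and 34.4 against 58.3 and 282 CPM) and Spp1 (0.0723 and 0.133 against 2.29 and 22.5 CPM) were named after their values were seen, and a single well gave 54.6% of the Thbs2 UMIs of shNT animal 2.

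Proteases of the matrix and their inhibitors had a median of −0.15 over 12 genes, with 1 above and 4 below without overlap. Mmp2, a gelatinase, stood at 695 and 537 CPM in shJun and at 473 and 624 in shNT, and Timp2, an inhibitor, at 659 and 572 CPM against 779 and 848 CPM. Of 16 genes of the TGF-beta pathway, which drives fibroblast activation, 2 lay above and 4 below without overlap (median −0.04). Ltbp4, which anchors latent TGF-beta, stood at 552 and 547 CPM against 574 and 538 CPM, and Skil, an inhibitor of Smad signalling, at 147 and 68.4 CPM against 61.1 and 52.0 CPM.

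**Figure D4:**
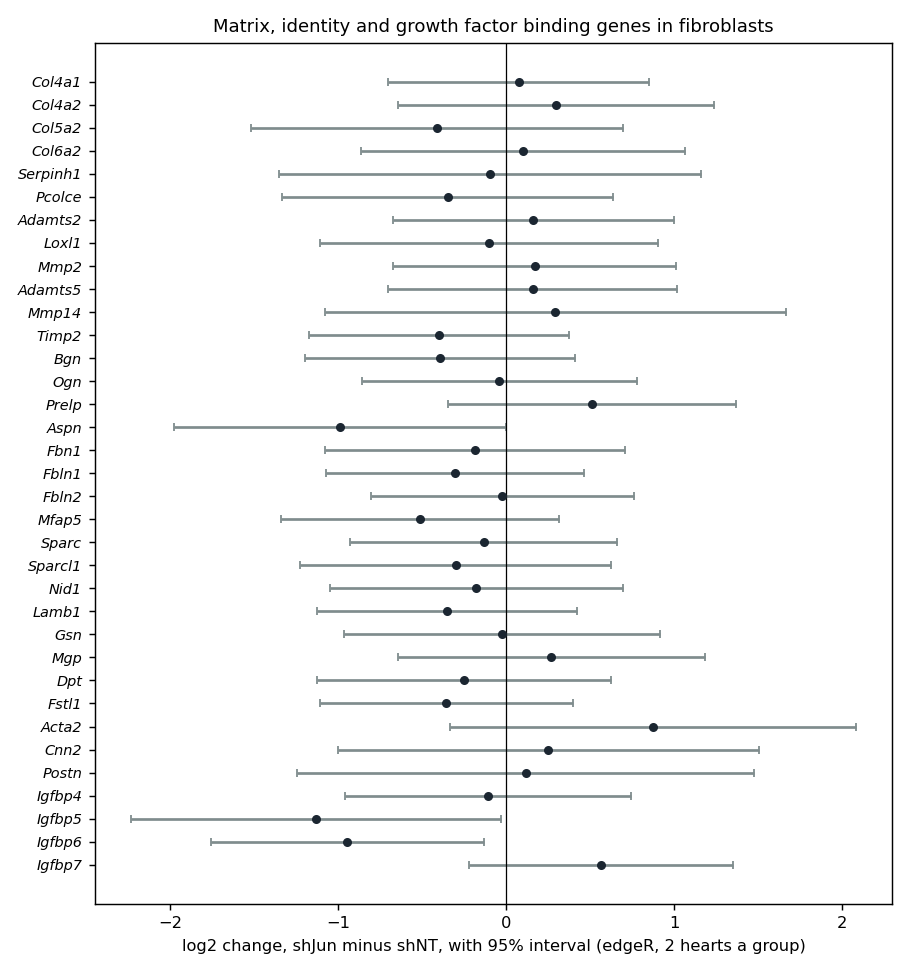
Log2 change of 35 matrix, identity and growth factor binding genes in fibroblasts, shJun minus shNT (horizontal), with 95% intervals from edgeR on 2 animals a group. Most intervals span 0; Aspn (−0.99), Igfbp5 (−1.13) and Igfbp6 (−0.95) lie below it without passing the adjusted threshold.

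Of 13 myofibroblast genes, 12 were tested and 0 passed, with 4 above and 0 below without overlap (median 0.28, above 0 in 22 of 24 settings). Acta2, smooth muscle actin, stood at 97.3 and 163 CPM in shJun and at 90.9 and 51.4 in shNT (log2 change 0.87, SE 0.50, 95% interval −0.33 to 2.08). Tagln, another contractile gene, named after its values were seen, stood at 16.8 and 21.6 CPM against 2.61 and 1.84 (log2 change 3.11, SE 0.93, edgeR adjusted p = 0.902). It rested on 26 and 20 shJun wells and 11 and 12 shNT wells, and a single well gave 65.8% of its UMIs in shJun animal 2. Postn, a secreted mark of activated fibroblasts, overlapped at 149 and 83.9 CPM against 153 and 62.8. Summed mural markers, some of which accompany contractile genes, were 2031 and 672 CPM in shJun and 842 and 1463 in shNT. Myh11, the myosin of smooth muscle, named after its values were seen, lay with Acta2 and Tagln, at 12.9 and 24.7 CPM in shJun against 3.55 and 6.08 in shNT. The part of mural cells in these values was not tested.

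Genes of fibroblast subsets were read next. Of 12 genes of resident identity, 11 were tested, with 1 above and 1 below without overlap (median −0.25). Gsn stood at 7089 and 6248 CPM in shJun and at 4952 and 8620 in shNT, and Dpt at 1062 and 701 CPM against 937 and 1163. Genes of the adventitial subset, which sits around vessels, had a median of −0.66 over 12 genes, with 2 above and 5 below without overlap. That median lay below 0 in 24 of 24 settings (−1.03 to −0.22). The settings re-used the same animals, so the kept sign is no separate check. Igfbp6, an IGF-binding protein, stood at 212 and 241 CPM in shJun and at 406 and 468 in shNT (log2 change −0.95, SE 0.34, 95% interval −1.76 to −0.13, edgeR adjusted p = 0.902). Igfbp5 stood at 442 and 531 CPM against 1475 and 659 CPM. Ly6a and Cd34, which are shared with endothelial cells, lay above without overlap, at 789 and 590.4 against 589.8 and 419.6 CPM and at 887 and 895 against 796 and 674 CPM. Genes of the subset marked by Wif1 had 0 above and 0 below (median 0.20, above 0 in 8 of 24 settings, 7 of 8 tested).

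Signals that fibroblasts send were mixed. Of 22 growth factors, 19 were tested, 2 lay above and 4 below without overlap (median −0.23), and Pdgfa, a ligand of the PDGF receptors that was named after its values were seen, stood at 36.7 and 24.2 CPM in shJun against 76.3 and 93.4 in shNT (log2 change −1.48, SE 0.52). Igf1 stood at 416 and 224 CPM against 453 and 240 CPM. Of 19 chemokines and cytokines, 16 were tested, with 1 above and 1 below without overlap (median −0.48). Ccl2, a monocyte attractant and AP-1 target, stood at 87.6 and 13.7 CPM in shJun and at 1397 and 29.7 CPM in shNT, and a single well gave 91.5% of the UMIs of shNT animal 1. Cxcl12 stood at 533 and 237 CPM against 236 and 251 CPM. Interferon-stimulated genes had a median of 0.05 over 17 genes, with 2 above and 1 below without overlap, and MHC class I genes −0.20 over 11 genes, with 0 above and 2 below.

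Genes of other programmes completed the lists. Growth factor receptors (13 genes) had a median of −0.21, with 0 above and 2 below without overlap, and Pdgfrb stood at 346 and 173 CPM in shJun against 314 and 318 in shNT. Heat shock genes had a median of 0.23 over 10 genes, with Hsp90ab1 at 1979 and 2014 CPM against 2008 and 1837. Cell cycle genes had a median of 0.52 over 15 of 16 genes, with 3 above and 1 below without overlap, and a single well gave 87.2% of the UMIs of Tyms in shJun animal 1. Secreted Wnt modulators (6 of 9 tested) had a median of 0.16 and IGF-binding proteins (5 of 6 tested) −0.11.

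**Figure D5:**
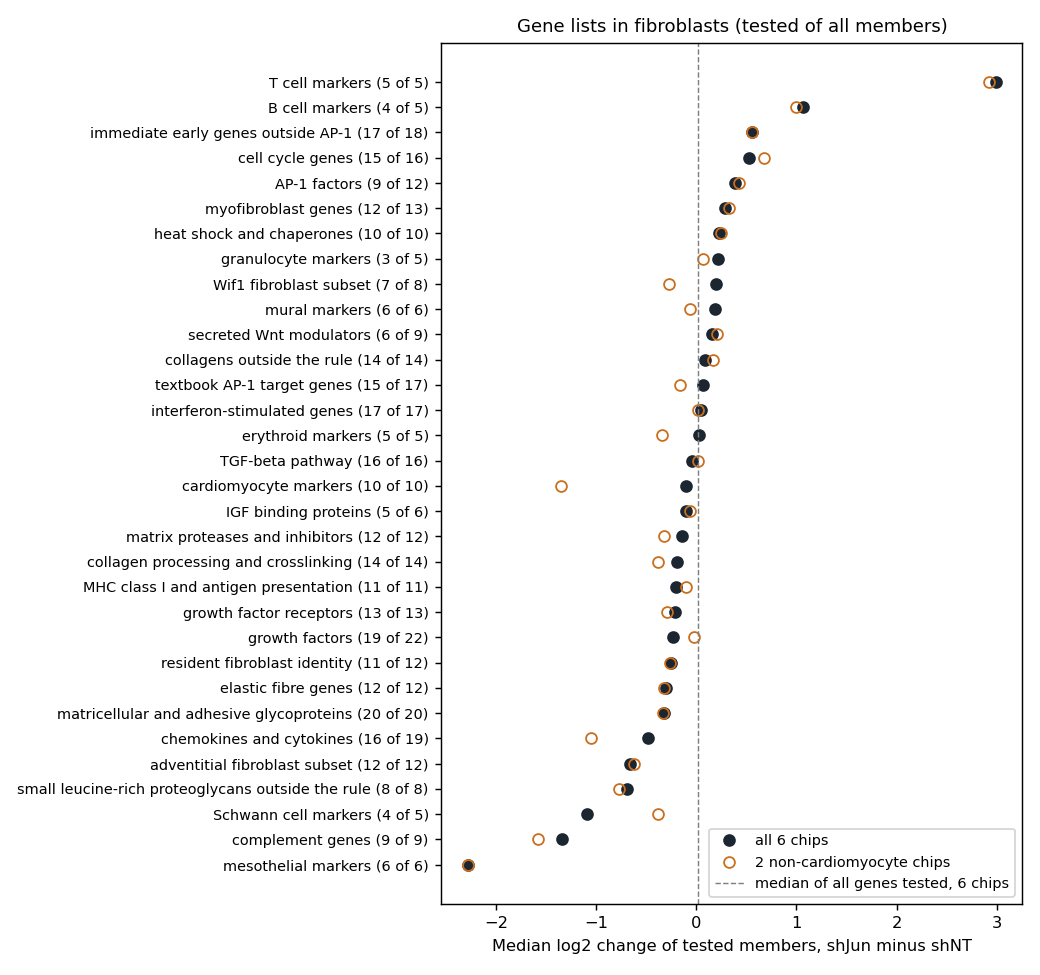
Median log2 change of the tested members of each gene list in fibroblasts, shJun minus shNT (horizontal), from all 6 chips (filled) and from the 2 non-cardiomyocyte chips (open), with the median of all genes tested as a dashed line. Among lists of fibroblast programmes, complement genes lie lowest (−1.34 and −1.58); mesothelial markers lie at −2.28 in both and T cell markers at 2.99 and 2.93.

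The mesothelial and T cell lists had medians farther from 0 than any list of fibroblast programmes. The 6 mesothelial markers had a median of −2.28, with 0 above and 4 below without overlap, led by Krt19 (13.9 and 6.53 CPM in shJun against 97.8 and 49.7 in shNT, named after its values were seen). The 5 T cell markers had a median of 2.99 without any gene that failed to overlap, since shJun animal 2 alone was high. Cardiomyocyte markers had a median of −0.11 on all chips and −1.35 on the non-cardiomyocyte chips, where shNT animal 1 held 1.58% of its UMIs in them. B cell, granulocyte, Schwann cell, mural and erythroid markers had medians of 1.07, 0.22, −1.10, 0.19 and 0.03.

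The genes with the smallest p in the test over all genes are given as values, since none passed. Higher in shJun were Med26, a Mediator subunit (74.0 and 56.2 against 2.19 and 1.90 CPM), Elp2, an Elongator subunit (116 and 119.7 against 12 and 15.2 CPM), Snrnp25, of the minor spliceosome (36.8 and 89.2 against 3.96 and 2.85 CPM), Camk4, a calcium-dependent kinase (11.1 and 53.2 against 0.417 and 0.696 CPM), and Sap18, of the Sin3 repressor complex (106 and 95.6 against 20.8 and 15.9 CPM). A single well gave 83.6 and 72.6% of the shJun UMIs of Med26, so its level there was set largely by 1 well per animal. The same held for Elp2 (66.9 and 72.1%) and Snrnp25 (52.5 and 55.9%), and for Sap18 in shJun animal 2 (72.5%). Camk4 rested on 9 and 29 shJun wells and was highest in shJun animal 2, where T cell markers also summed highest. The part of T cells in its level was not tested. Lower in shJun, beside C4b, were Dmkn, a secreted protein of epithelia (2.53 and 3.46 against 67.2 and 47.2 CPM), Tmem220 (1.08 and 1.46 against 56.0 and 25.6 CPM), Nupl2 (1.08 and 1.27 against 16.2 and 32.2 CPM) and Spaca1. Dmkn came from 8 and 8 wells in shJun and from 10 and 14 wells in shNT, and Spaca1 had 0 UMIs in shJun and 35 and 39 in shNT, the latter in 1 and 3 wells. Single wells also gave 81.3 and 93.9% of the shNT UMIs of Nupl2 and 63.5 and 70.8% of those of Tmem220. All 10 genes, C4b included, kept their sign in every setting tried in which they were tested. They had been picked for groups that did not overlap in these same animals. A kept sign was therefore largely fixed by that choice and is no separate check.

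The promoter of Dmkn is shown because it is the lower gene with the smallest p and holds the short AP-1 site, in capitals (TGAGTCA, 89 bases before the start), chr7:30763506-30763755, plus strand, GRCm38.p6, from RefSeq. Another Dmkn start lies so close that it shares this same site, at 91 bases before it. A more distant Dmkn start has a TGAGTCA of its own, at 82 bases. No match to TGANTCA or TGANNTCA was found in the RefSeq promoters of Med26, Snrnp25, Sap18, Nupl2 and Spaca1. None was found in those of the complement genes C1ra, C1s1, Cfd, C7 and C3. Promoters of the other complement genes, C4b included, were not among those scanned. Such a match is a description of the letters only.
Dmkn promoter: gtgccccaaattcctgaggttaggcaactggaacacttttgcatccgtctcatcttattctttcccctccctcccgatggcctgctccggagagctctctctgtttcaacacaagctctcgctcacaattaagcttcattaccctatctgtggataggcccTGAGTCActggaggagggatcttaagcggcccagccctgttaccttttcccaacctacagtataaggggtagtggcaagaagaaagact

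To ask whether the hairpin changed how many fibroblasts were recovered, their share among wells with 500 or more genes was compared. Fibroblasts made up 26.2 and 15.9% of wells in shJun and 15.0 and 16.2% in shNT, a difference of 5.49 percentage points (exact two-sided permutation test, p = 0.667, where 0.333 is the smallest that 2 against 2 allows). Each chip held 1 shJun and 1 shNT animal. On the non-cardiomyocyte chip of animals 1 the share was 53.1% in shJun (exact binomial 95% interval 49.4 to 56.7%) and 32.7% (29.3 to 36.2%) in shNT, whereas on that of animals 2 it was 30.8 and 30.2%. On the cardiomyocyte chips of animals 1 it was higher in shJun, at 7.01 against 3.65% and at 3.82 against 1.08%. On those of animals 2 it was lower in shJun, at 6.69 against 7.99% and at 9.87 against 10.1%. The shares depend on what was loaded, and the higher value rested on shJun animal 1.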

How the data were processed

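Single-cell RNA-seq of 6 knockdown samples (each a chip) and 6 P28 samples was used. Per the study's methods and the submitters' processing notes, the authors aligned reads to mm10 with STAR (2.5.2b), assigned them to Ensembl genes with featureCounts of Subread (1.4.6-p1) and collapsed UMIs. The deposited values are raw UMI counts per gene and well, neither filtered nor normalized, with counts of reads and genes per well. Hairpin, animal and fraction came from the deposited well reports. Symbols came from GENCODE vM21.

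Mitochondrial genes (35), spike-ins and the reporter were left out. Counts were summed per animal and tested with edgeR 4.0.16 (R 4.3.3; TMM, filterByExpr, quasi-likelihood test, Benjamini-Hochberg at 0.05), with DESeq2 1.42.0 as an alternative. The study's Wilcoxon tests across cells were not repeated. For class differences, class and hairpin interacted with animal as a block. Shares were computed in Python 3.11.15 (scipy 1.17.1) after thinning wells to 2000 UMIs, with exact 95% intervals that cover counting error only. Per the study's methods, wells were imaged to pick single live cells. No doublet caller was run, and wells with RNA of several cells were not removed. The fits were also run on simulated counts of lower dispersion than the real sums, which checks the code and not the power here.

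Members, lists and tests were chosen with earlier results of these data known. Named genes were Jun, the 5 smallest p per direction without overlap, and the 4 highest members of each list; others are marked. The 2 animals per hairpin shared chips by number (animals 1 on 3 chips and animals 2 on the other 3), so the numbers pair them. Across 15314 genes the deviations of same-numbered animals correlated at 0.083. Of the complement list, 1 gene is not reported here and was left out of its list.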

Additional observations from a re-analysis of the deposited data

Results flagged for a closer look

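In uninjected P28 fibroblasts, Serping1, the inhibitor of the C1 proteases, stood at 3213 CPM (without TMM scaling) on 1 of 5 chips, whereas the next highest chip stood at 968 CPM and the others at 724 to 905 CPM. The gap to the nearest chip took up 0.902 of the whole range, above the limit used for 5 values. That chip held 217 fibroblast wells with a median of 4461 UMIs. Chance alone marks about 1 in 20 such groups.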

How the results depend on the processing

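Genes differing between shJun and shNT fibroblasts numbered 0 with edgeR. Their number stayed at 0 with a replicate block (724 at an unadjusted p under 0.05), with RLE size factors, with stricter marker, cardiomyocyte, gene or UMI limits, with thinning, and without any single animal on all chips (538 to 1008 at an unadjusted p under 0.05). It was 217 with DESeq2, 239 without the filter on low counts, 8 with sums per animal and chip, 243 with DESeq2 on the non-cardiomyocyte chips, and 0 to 1 when an animal was left out there, the 1 being Gm13340 without shNT animal 2. Settings on the non-cardiomyocyte chips were chosen after seeing the data. Of the listed genes 0 passed, but 8 did with DESeq2, 7 without the filter and 7 with DESeq2 on the non-cardiomyocyte chips, C4b each time. The 35 lists held 367 distinct genes. Over all genes tested, DESeq2 called 1.55% and edgeR without the filter 0.882%, and the listed counts are to be read against those shares. Why the number of called genes differed between settings was not tested.

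The log2 change of Jun in shJun and shNT fibroblasts (0.38) was 0.34 with the replicate block, −0.14 with markers of at least 1%, and −0.00747 with cardiomyocyte markers under 1%. Leaving out an animal gave −0.00763 to 0.69 on all chips and −0.23 to 0.87 on the non-cardiomyocyte chips. The pairing changed no other call. The fibroblast share differed by −1.31 and −0.233 percentage points on the chips 3 and 4, against 5.49 over all. On the chips 1, 2, 5 and 6 it differed by 3.36, 2.74, 20.4 and 0.521 points. The share of wells with a Jun UMI differed by −1.88 points without thinning, against 2.57 with it. Of 155 named genes, 58 kept their sign in every setting tried, and 413 of 3648 values had the other sign. With 2 animals a group and a common dispersion of 0.483, the power to detect moderate changes was not measured. A gene that did not pass is therefore not shown to be unchanged.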

Other observations

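Over the 15314 genes tested, log2 CPM of the 4 fibroblast sums correlated at 0.840 between the shJun animals, at 0.832 between the shNT animals and at 0.824 to 0.857 between animals of different hairpins. These are descriptions across genes, which are not independent replicates. Of the tested genes, 1373 took more than 50% of their UMIs from a single well.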
